A study of Mus musculus with 8 samples.

Results

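The genes described here are 9 mouse genes of antigen presentation: the major histocompatibility complex (MHC) class II genes H2-Aa, H2-Ab1, H2-Eb1, H2-DMa and H2-DMb1, their partners Cd74 and Ciita, the Langerhans cell receptor gene Cd207 and the costimulation gene Cd86. They were chosen by name, and every probe set annotated to 1 of these symbols and to no other was kept, which gave 17 probe sets for the 9 genes. They stood among 17097 genes that had such a probe set, 28898 probe sets with a single symbol and 45141 probe sets in all.

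RNA was measured on 8 arrays in 4 groups of 2: Lgr5-positive cells of vismodegib mice, Lgr5-positive cells of untreated mice, Lgr5-negative cells of vismodegib mice and Lgr5-negative cells of untreated mice. All 4 mice, the untreated ones included, had the genotype K14-CreER/Ptch1cKO. In it an inducible Cre under the keratin 14 promoter, which is active in basal keratinocytes, removes Ptch1, the receptor that restrains Hedgehog signalling, and basal cell carcinoma follows. Vismodegib inhibits Smoothened, the Hedgehog transducer that Ptch1 restrains. Back skin was treated with thermolysin, and the epidermal cells were stained for Lrig1, a surface marker of follicle progenitors, and sorted on a green fluorescent reporter of Lgr5, a receptor of follicle stem cells. Both populations were therefore Lrig1-positive, and the negative one is spelled Lrg5-Lrig1+ in the labels. The labels call the sorted cells tumour cells of basal cell carcinoma and name no stain that would set leukocytes aside. Dose and time of vismodegib, strain, age and sex were not given. Each group held 1 array from each of 2 separate mice, and the Lgr5-positive and Lgr5-negative cells of a mouse carry its number.

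MHC class II proteins are pairs of an alpha and a beta chain that carry peptides from endosomes to the cell surface, where CD4 T cells read them. The invariant chain, made from Cd74, blocks the groove until proteases cut it down, and the H2-DM heterodimer then swaps its last fragment for a peptide. Transcription of these genes depends on the transactivator Ciita, which interferon gamma can induce outside the immune system. In the epidermis the resident cells with class II are the Langerhans cells, which also make langerin (Cd207), and keratinocytes can be induced to show class II. The class II chains are among the most polymorphic genes of the mouse.

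Class II promoters carry a conserved X box and Y box at a close spacing, where the factors that recruit Ciita bind, so the windows before the start of transcription are shown for members whose signals are compared below. The RefSeq promoter table (GRCm38.p6) held 5 of the 9 members, and the 250 bases before the start were searched on both strands for ACNGATG, taken as the core of the X box, and ATTGG, the Y box, which do not share bases. Capitals mark every match, on either strand. The window of H2-Aa lies at chr17:34287824-34288073 on the minus strand, H2-Eb1 at chr17:34305617-34305866 on the plus strand and H2-DMb1 at chr17:34152941-34153190 on the plus strand.
H2-Aa: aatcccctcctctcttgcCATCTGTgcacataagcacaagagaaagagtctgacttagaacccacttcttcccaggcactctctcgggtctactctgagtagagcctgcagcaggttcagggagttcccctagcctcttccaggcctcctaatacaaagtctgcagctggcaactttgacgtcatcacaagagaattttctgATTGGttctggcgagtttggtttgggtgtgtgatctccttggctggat
H2-Eb1: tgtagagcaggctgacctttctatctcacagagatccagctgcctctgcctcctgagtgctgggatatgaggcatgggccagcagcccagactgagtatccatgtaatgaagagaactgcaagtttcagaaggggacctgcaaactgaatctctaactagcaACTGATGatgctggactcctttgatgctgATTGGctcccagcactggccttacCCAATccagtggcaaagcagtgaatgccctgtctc
H2-DMb1: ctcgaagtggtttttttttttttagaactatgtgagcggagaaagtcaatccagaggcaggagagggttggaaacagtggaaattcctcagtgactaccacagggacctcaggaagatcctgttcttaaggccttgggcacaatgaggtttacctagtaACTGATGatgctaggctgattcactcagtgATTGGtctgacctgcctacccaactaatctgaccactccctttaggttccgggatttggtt
In the H2-Eb1 window ACTGATG lay 88 to 82 bases before the start and ATTGG 59 to 55 bases before it, with 22 bases between them. In the H2-DMb1 window they lay 91 to 85 and 61 to 57 bases before the start, with 23 bases between. The H2-Aa window held ATTGG 48 to 44 bases before the start and matched ACNGATG only on the opposite strand, 232 to 226 bases before it. ACNGATG followed within 10 to 30 bases by ATTGG occurred in 49 of 32851 windows of all genes (0.149%), ACNGATG alone in 8.31% and ATTGG alone in 33.8%. Neither window of H2-DMa and not the window of Cd207 held the spaced pair. Only these strings were searched. An X box of another sequence, in H2-Aa or elsewhere, would not be marked, so a missing match does not show that the box is absent.

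The arrays had like distributions, with medians between 6.13 and 6.20 and maxima between 13.3 and 13.4 on the log2 scale of the values. The keratinocyte and epithelial markers Krt14 (12.2 to 12.7) and Epcam (10.9 to 11.5) were high on all arrays. Lgr5 followed the sort: it read 9.44 and 10.03 in Lgr5-positive cells of vismodegib mice against 5.46 and 4.83 in their Lgr5-negative cells, and 10.98 and 11.00 against 8.52 and 8.40 in untreated mice. Ptch1, the deleted gene and itself a Hedgehog target, read 8.25 and 8.78 in Lgr5-positive cells of vismodegib mice against 11.91 and 11.38 in those of untreated mice, and whether its probes lie in the deleted part was not given. Gli1, a Hedgehog target, read 6.42 and 6.39 in vismodegib Lgr5-positive cells against 9.73 and 10.13 in untreated ones. The pan-leukocyte marker Ptprc (CD45) ranged from 4.33 to 7.74, so its signal differed among arrays of cells labelled as tumour cells. Cd3e of T cells lay between 4.81 and 6.12, Pecam1 of endothelium between 5.90 and 6.22 and Col1a1 of fibroblasts between 5.93 and 7.19. The 25th percentile of all values was 4.85, and the 35174 probe sets above it on at least 2 arrays were tested with limma, a linear model with a shared estimate of the spread. Of the 17 member probe sets 16 passed this filter, and the exception was Ciita 1447075_PM_at, which stayed between 4.61 and 5.08.

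**Figure D1:**
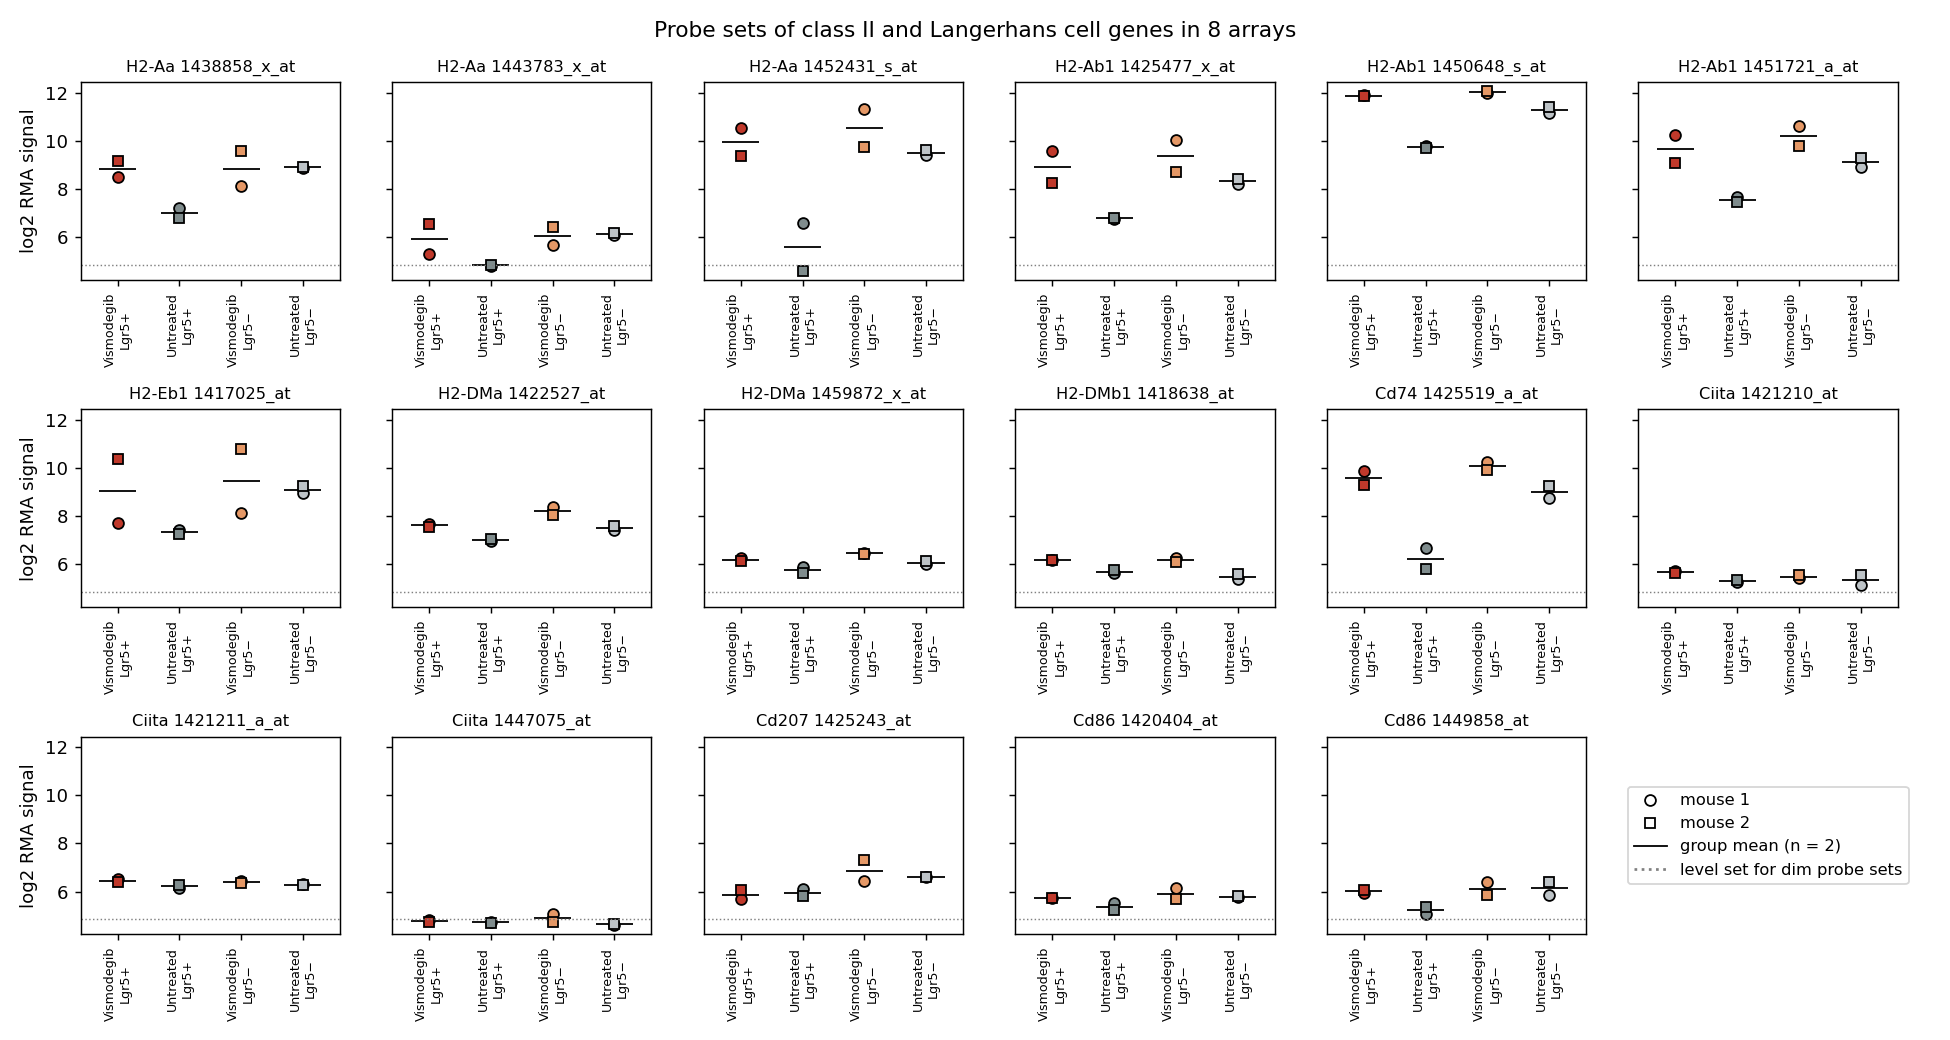
Log2 RMA signal (y axis) of the 17 member probe sets on the 8 arrays, in the 4 groups on the x axis, with circles for mouse 1, squares for mouse 2 and a bar for the group mean (n = 2). Untreated Lgr5-positive cells had the lowest mean of the 4 groups for 14 of the 17 probe sets. The share of all tested probe sets with that order was not computed. The dotted line is the level of 4.85 used to filter dim probe sets.

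In Lgr5-positive cells the class II genes were higher in vismodegib mice than in untreated mice. Of the 16 tested probe sets 7 rose and 0 fell, and they belonged to H2-Aa, H2-Ab1, H2-DMa and Cd74. Over all 35174 probe sets tested, 5.15% rose and 4.27% fell in this comparison (limma, adjusted p under 0.05). The increases were 20.3-fold for H2-Aa on 1452431_PM_s_at, 10.2-fold for Cd74 and 4.38-fold for H2-Ab1 on 1450648_PM_s_at. Over all 17 probe sets the median log2 fold change was 0.78, against -0.00115 over all tested. The arrays cannot tell a change in the number of class II-bearing cells in the sort from a change in RNA per cell.

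H2-Aa encodes the alpha chain of the I-A molecule and was read by 3 probe sets. On 1452431_PM_s_at the signal was 10.54 and 9.35 in vismodegib mice, against 6.59 and 4.61 in untreated mice. The groups were well apart, but the untreated arrays also differed from each other, mouse 2 lying below the filter level. The log2 fold change was 4.35 ± 0.73 (SE, adjusted p = 0.0115). It was 3.75 (adjusted p = 0.0918) without the Lgr5-positive array of vismodegib mouse 1, 5.34 without that of untreated mouse 1 and 3.36 without that of untreated mouse 2. The mean of the H2-Aa probe sets gave 2.42 (adjusted p = 0.001), so the size was less firm than the direction. On 1438858_PM_x_at the signal was 8.50 and 9.14 in vismodegib mice, against 7.20 and 6.80 in untreated mice, a log2 fold change of 1.81 ± 0.44 (adjusted p = 0.0434). That call was lost without any 1 of the 4 arrays compared (adjusted p between 0.0822 and 0.224), and without either untreated Lgr5-negative array (0.0858). The third, 1443783_PM_x_at, had 5.32 and 6.53 in vismodegib mice, against 4.81 and 4.87 in untreated mice, and did not pass (1.09 ± 0.39, adjusted p = 0.134). The letters x and s at the end of such names mark probe sets that can also bind related transcripts, and a marks those that read several transcript forms of a gene, which makes single values less certain.

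H2-Ab1 encodes the beta chain that pairs with H2-Aa, and its 3 probe sets gave nearly the same increase. On 1450648_PM_s_at the signal was 11.89 and 11.86 in vismodegib mice, against 9.78 and 9.72 in untreated mice. Both pairs were tight, and the log2 fold change of 2.13 ± 0.13 had an adjusted p of 0.000316. It was called in all 20 alternatives run, with adjusted p between 9.47e-05 and 0.00938. On 1451721_PM_a_at the signal was 10.22 and 9.09 in vismodegib mice, against 7.66 and 7.47 in untreated mice (2.09 ± 0.40, adjusted p = 0.0183). On 1425477_PM_x_at it was 9.58 and 8.24 in vismodegib mice, against 6.76 and 6.81 in untreated mice (2.12 ± 0.50, adjusted p = 0.0388). On these last probe sets vismodegib mouse 1 was higher than mouse 2, and without its Lgr5-positive array the calls were lost (log2 fold changes 1.53 and 1.45, adjusted p 0.0898 and 0.197). They were also lost without either untreated Lgr5-positive array (adjusted p between 0.052 and 0.136), and that of 1425477_PM_x_at without either untreated Lgr5-negative array (0.0778).

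H2-Eb1, the beta chain of the I-E molecule, depended on the mouse. Its probe set read 7.74 and 10.38 in Lgr5-positive cells of vismodegib mice, against 7.44 and 7.26 in untreated mice. The vismodegib values lay above both untreated ones, mouse 2 by far the more, and the log2 fold change of 1.71 ± 0.97 did not pass (adjusted p = 0.348). With both arrays of vismodegib mouse 1 left out it was 3.04 (adjusted p = 0.00579), an alternative added after the data had been seen.

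Cd74, the invariant chain, had 1 probe set and a large change. Its signal was 9.89 and 9.28 in vismodegib Lgr5-positive cells, against 6.69 and 5.79 in untreated ones. The groups were separated by more than the spread within either, with a log2 fold change of 3.34 ± 0.34 (adjusted p = 0.00156). The call held in all 20 alternatives, with log2 fold changes from 2.90 to 3.79.

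The peptide-exchange genes changed less. H2-DMa 1422527_PM_at read 7.68 and 7.55 in vismodegib Lgr5-positive cells, against 6.98 and 7.04 in untreated ones (0.61 ± 0.15, adjusted p = 0.0447), and its other probe set, 1459872_PM_x_at, gave 0.43 ± 0.13 (adjusted p = 0.0988). The H2-DMa call was lost in 13 of 20 alternatives, among them the omission of any 1 of the 4 arrays compared (adjusted p 0.117 to 0.233) or of either untreated Lgr5-negative array (0.082). H2-DMb1, its partner chain, had 6.18 and 6.19 in vismodegib cells, against 5.62 and 5.76 in untreated cells, with a log2 fold change of 0.49 ± 0.13 (adjusted p = 0.0588).

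The transactivator and the Langerhans cell gene did not pass the test. Ciita read 5.72 and 5.64 on 1421210_PM_at in vismodegib Lgr5-positive cells, against 5.28 and 5.36 in untreated ones, a log2 fold change of 0.36 with a 95% interval of 0.00246 to 0.72 and an adjusted p of 0.208. Its probe set 1421211_PM_a_at gave 0.24 (adjusted p = 0.276). Cd207 read 5.70 and 6.05 in vismodegib cells, against 6.09 and 5.80 in untreated cells, so the groups overlapped. Its log2 fold change was -0.07 ± 0.28, with a 95% interval of -0.72 to 0.58 (adjusted p = 0.918). An increase of more than 0.58 lay outside this interval, which bounds the signal of 1 probe set and not the number of Langerhans cells. These Cd207 values lay below the array medians. Cd86, a ligand of CD28 on T cells, had 5.95 and 6.07 on 1449858_PM_at in vismodegib cells, against 5.09 and 5.37 in untreated cells (0.78 ± 0.24, adjusted p = 0.0864), and 0.36 ± 0.18 on 1420404_PM_at (adjusted p = 0.27).

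In Lgr5-positive cells 15 of the 17 probe sets had both vismodegib values above both untreated values, and 0 had them below. Of all tested probe sets 28% and 26.6% lay apart in these directions. Of the 7 calls, 2 were kept without the Lgr5-positive array of vismodegib mouse 1 (H2-Ab1 1450648_PM_s_at and Cd74), 3 without either untreated Lgr5-positive array, 4 without either untreated Lgr5-negative array and 2, again H2-Ab1 1450648_PM_s_at and Cd74, when a fold of at least 2 was required.

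**Figure D2:**
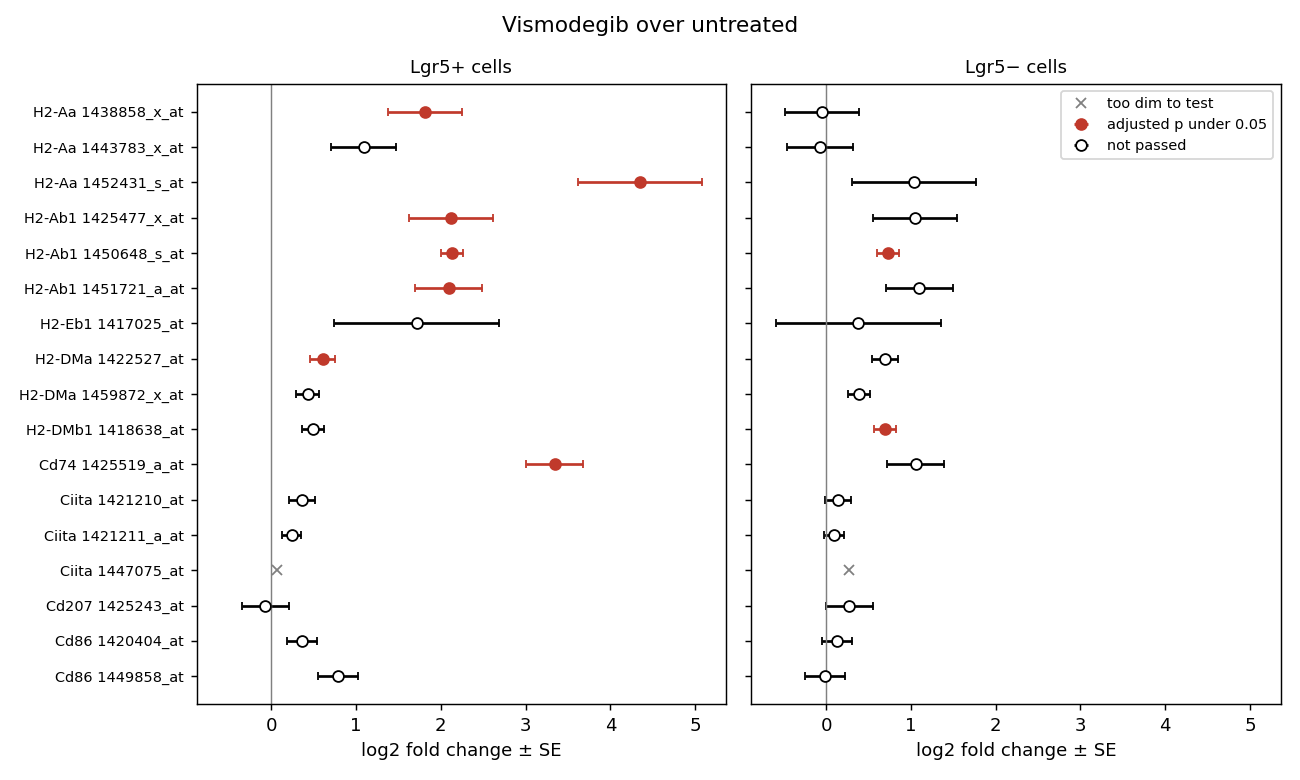
Log2 fold change of vismodegib over untreated (x axis, points with SE bars from the limma model) for each member probe set (y axis) in Lgr5-positive cells on the left and Lgr5-negative cells on the right. Filled points passed an adjusted p of 0.05: 7 probe sets in Lgr5-positive cells and 2 in Lgr5-negative cells.

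In Lgr5-negative cells the same comparison gave smaller values. There 2 of 16 tested probe sets rose, H2-Ab1 1450648_PM_s_at and H2-DMb1, and 0 fell, where 0.975% of all tested rose and 1.13% fell. H2-Ab1 1450648_PM_s_at had 11.97 and 12.05 in vismodegib mice, against 11.14 and 11.42 in untreated mice (0.73 ± 0.13, adjusted p = 0.0404). H2-DMb1 had 6.28 and 6.09 in vismodegib mice, against 5.40 and 5.58 in untreated mice (0.69 ± 0.13, adjusted p = 0.0467). Both calls sat close to the threshold and were lost without any 1 of the 8 arrays, with adjusted p from 0.0538 to 0.192 for H2-Ab1 and from 0.0562 to 0.222 for H2-DMb1.

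Cd74 read 10.24 and 9.91 in Lgr5-negative cells of vismodegib mice, against 8.76 and 9.27 in those of untreated mice, and did not pass (1.06 ± 0.34, adjusted p = 0.17). H2-DMa 1422527_PM_at read 8.38 and 8.05 in vismodegib mice, against 7.44 and 7.61 in untreated mice (0.69 ± 0.15, adjusted p = 0.0636). H2-Aa 1452431_PM_s_at had 11.33 and 9.76 in vismodegib mice, against 9.40 and 9.61 in untreated mice (1.04 ± 0.73, adjusted p = 0.527), while 1438858_PM_x_at had 8.12 and 9.58 in vismodegib mice, against 8.88 and 8.92 in untreated mice (-0.05 ± 0.44). H2-Eb1 had 8.15 and 10.78 in vismodegib mice, against 8.95 and 9.23 in untreated mice, so the treated values lay on either side of the untreated ones. Cd207 read 6.43 and 7.31 in vismodegib mice, against 6.60 and 6.59 in untreated mice (0.27 ± 0.28, adjusted p = 0.679). Both vismodegib values lay above both untreated ones for 10 of the 17 probe sets and below for 0, against 26.4% and 23.1% of all tested. The median log2 fold change over the 17 was 0.38, against 0.01 over all tested.

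Whether the increase differed between the populations was tested directly. Of 16 probe sets 1 passed and had the larger increase in Lgr5-positive cells, H2-Ab1 1450648_PM_s_at, by 1.40 ± 0.19 on the log2 scale (adjusted p = 0.0312). Of all tested probe sets 0.48% had a larger value in Lgr5-positive cells and 0.233% a smaller one. The call was lost without any 1 of the 8 arrays, with log2 differences from 1.27 to 1.54 and adjusted p from 0.0501 to 0.159. Cd74 gave 2.28 ± 0.48 (adjusted p = 0.0856) and H2-Aa 1452431_PM_s_at 3.31 ± 1.03 (adjusted p = 0.193). H2-DMa and H2-DMb1 had differences near 0, at -0.09 ± 0.21 for H2-DMa 1422527_PM_at (95% interval -0.57 to 0.40) and -0.20 ± 0.18 for H2-DMb1 (-0.63 to 0.23).

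In untreated mice the Lgr5-positive cells had less class II signal than the Lgr5-negative cells of the same mice. This comparison uses the same untreated Lgr5-positive arrays as the drug comparison in those cells, so the values of both rest on them. Of 16 tested probe sets 6 fell and 0 rose, in H2-Aa, H2-Ab1, Cd74 and Cd86, where 7.51% of all tested fell and 5.62% rose. Cd74 read 6.69 and 5.79 in Lgr5-positive cells, against 8.76 and 9.27 in Lgr5-negative cells (-2.78 ± 0.34, adjusted p = 0.00362). H2-Ab1 1450648_PM_s_at read 9.78 and 9.72 in Lgr5-positive cells, against 11.14 and 11.42 in Lgr5-negative cells (-1.53 ± 0.13, adjusted p = 0.00131). The groups did not overlap in either gene, and both calls held without any 1 array, though not when a fold of at least 2 was required (adjusted p 0.236 for H2-Ab1 and 0.0901 for Cd74).

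H2-Aa 1452431_PM_s_at had 6.59 and 4.61 in Lgr5-positive cells of untreated mice, against 9.40 and 9.61 in their Lgr5-negative cells (-3.91 ± 0.73, adjusted p = 0.0146). H2-Aa 1438858_PM_x_at gave -1.90 ± 0.44 (adjusted p = 0.0312) and H2-Ab1 1451721_PM_a_at -1.54 ± 0.40 (adjusted p = 0.0435). Cd86 1449858_PM_at had 5.09 and 5.37 in Lgr5-positive cells, against 5.87 and 6.39 in Lgr5-negative cells (-0.90 ± 0.24, adjusted p = 0.0459). The 4 calls of this paragraph were lost without 1 array: that of H2-Aa 1452431_PM_s_at without untreated Lgr5-positive mouse 2 (adjusted p = 0.051) or either untreated Lgr5-negative array (0.0741 and 0.109), and the others without any 1 of the untreated arrays (0.0631 to 0.271). That of Cd86 was also lost without either vismodegib Lgr5-positive array (0.0812).

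Both populations came from the same mice, and with the mouse as a block 9 probe sets fell in place of 6. With the mouse as a random effect 7 fell, and the added call was H2-DMa 1422527_PM_at (adjusted p = 0.048). The calls added by the fixed block were H2-Eb1 (-1.74, adjusted p = 0.00258, against 0.283 without the block), H2-Ab1 1425477_PM_x_at (-1.54, adjusted p = 0.00238, against 0.0853) and H2-Aa 1443783_PM_x_at (-1.29, adjusted p = 0.00555, against 0.0681), and with the random effect none of these 3 passed (adjusted p 0.236 for H2-Eb1, 0.0631 for H2-Ab1 and 0.0505 for H2-Aa). H2-Eb1 read 7.44 and 7.26 in Lgr5-positive cells of untreated mice, against 8.95 and 9.23 in their Lgr5-negative cells, with no overlap. Cd207 had 6.09 and 5.80 in Lgr5-positive cells, against 6.60 and 6.59 in Lgr5-negative cells, and passed neither way (-0.65 ± 0.28, adjusted p = 0.169, and 0.0589 with the block). With only the 4 untreated arrays in the limma fit it did pass (adjusted p = 0.0444). Neither tested probe set of Ciita moved beyond its error (-0.02 ± 0.15 and -0.08 ± 0.12), and H2-DMb1 gave 0.20 ± 0.13 (adjusted p = 0.357). In untreated mice 13 of the 17 probe sets had both Lgr5-positive values below both Lgr5-negative ones and 2 had them above, where 27.4% and 35.2% of all tested did. The median over the 17 was -0.90, against 0.05 over all tested. Without 1 array the number that fell ranged down to 2, reached without untreated Lgr5-positive mouse 2 or either untreated Lgr5-negative array, and it was 3 without untreated Lgr5-positive mouse 1.

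After vismodegib 0 of the 16 tested probe sets differed between the populations by limma, where 0.173% of all tested rose and 0.0455% fell. At an unadjusted p under 0.05, 2 were lower in Lgr5-positive cells, Cd207 and H2-DMa 1422527_PM_at, and 0 were higher, where 4.93% of all tested were lower and 6.56% higher at that level. Cd207 read 5.70 and 6.05 in Lgr5-positive cells, against 6.43 and 7.31 in Lgr5-negative cells (-1.0 ± 0.28, adjusted p = 0.254, unadjusted p = 0.00785 from the limma model). H2-DMa 1422527_PM_at read 7.68 and 7.55 in Lgr5-positive cells, against 8.38 and 8.05 in Lgr5-negative cells (-0.60 ± 0.15, adjusted p = 0.202). H2-Ab1 1450648_PM_s_at differed by -0.13 with a 95% interval of -0.44 to 0.18, which does not reach the -1.53 measured in untreated mice. For Cd74 the difference was -0.49 with an interval of -1.28 to 0.29, which does not reach -2.78 either. The values from untreated mice carry errors of their own. In the direct limma test given above, H2-Ab1 1450648_PM_s_at passed and Cd74 did not (adjusted p = 0.0856). For H2-Eb1 the interval ran from -2.68 to 1.87 and sets no useful bound. The Lgr5-positive values lay below the Lgr5-negative ones without overlap for 5 of the 17 probe sets and above for 1, against 19.8% and 22.9% of all tested, and the median was -0.18, against 0.01 over all tested.

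**Figure D3:**
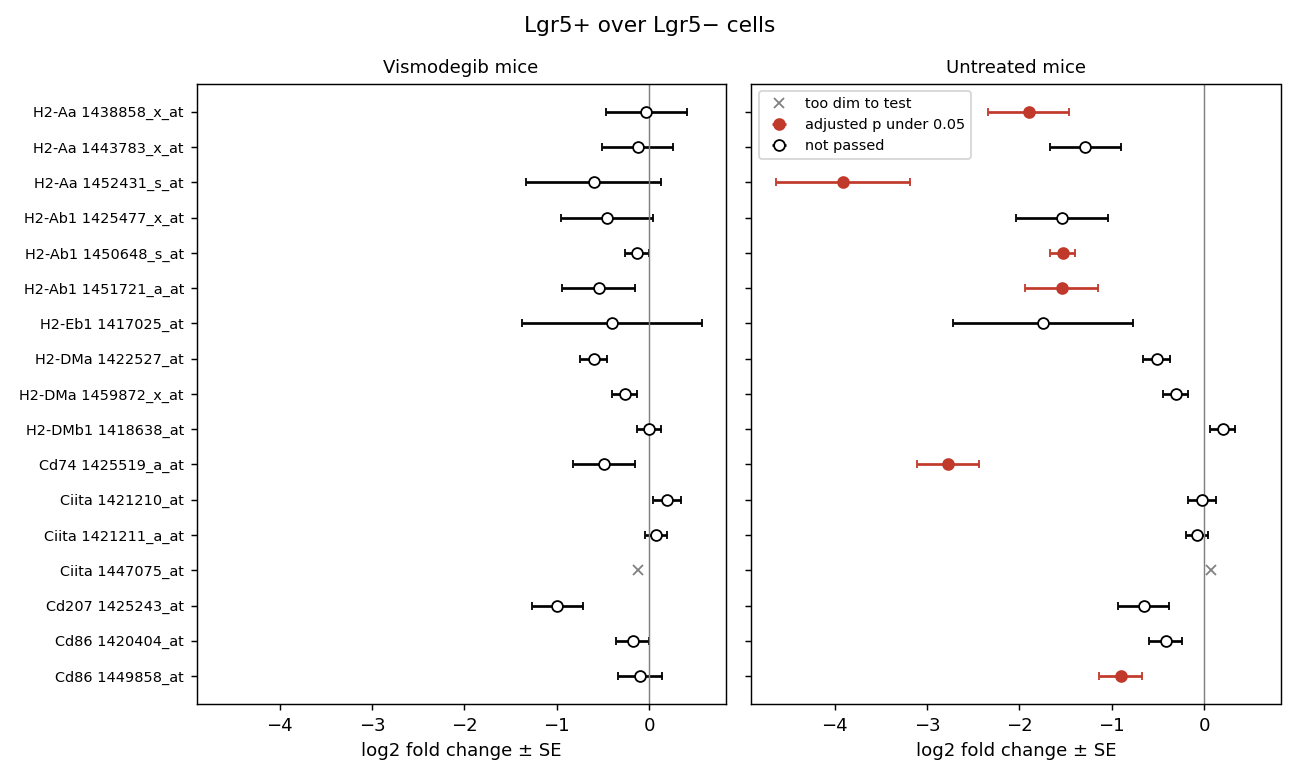
Log2 fold change of Lgr5-positive over Lgr5-negative cells (x axis, points with SE bars from the limma model) for each member probe set (y axis) in vismodegib mice on the left and untreated mice on the right. In untreated mice 6 probe sets passed, all lower in Lgr5-positive cells, and in vismodegib mice 0 passed.

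The order of the group means was not the same for all genes. Untreated Lgr5-positive cells had the lowest mean for 14 of the 17 probe sets, and vismodegib Lgr5-negative cells the highest for 11. The share of all tested probe sets with such an order was not computed, and probe sets of the same gene are not independent. For Cd74 the means ran 10.08 in vismodegib Lgr5-negative, 9.58 in vismodegib Lgr5-positive, 9.02 in untreated Lgr5-negative and 6.24 in untreated Lgr5-positive cells. The vismodegib populations at the top of this order did not overlap on single arrays (9.89 and 9.28 in Lgr5-positive cells, against 10.24 and 9.91). Their difference did not pass (limma, adjusted p = 0.616). That between the untreated populations did (adjusted p = 0.00362), and the middle pair was not compared. Cd207 had another order, with means of 6.87 in vismodegib Lgr5-negative, 6.60 in untreated Lgr5-negative, 5.94 in untreated Lgr5-positive and 5.87 in vismodegib Lgr5-positive cells. Its means thus split by population, with an overlap between treatments within each population. Neither population difference of Cd207 passed in the fit as reported (limma, adjusted p 0.169 in untreated mice and 0.254 after vismodegib). Whether its pattern differs from that of Cd74 was not tested.

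The 2 vismodegib mice disagreed on several class II probe sets, in the same way in both of their populations. H2-Eb1 was higher in vismodegib mouse 2 than in mouse 1 by 2.65 in Lgr5-positive cells and 2.63 in Lgr5-negative cells. H2-Ab1 1425477_PM_x_at differed by -1.34 and -1.30, and H2-Ab1 1451721_PM_a_at by -1.13 and -0.85, so mouse 1 was higher there. The third H2-Ab1 probe set, 1450648_PM_s_at, differed by only -0.03 and 0.09.

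The H2-Aa probe sets went opposite ways between those mice. Mouse 2 was higher on 1438858_PM_x_at by 0.64 in Lgr5-positive cells and 1.46 in Lgr5-negative cells, and on 1443783_PM_x_at by 1.21 and 0.76. On 1452431_PM_s_at the difference was -1.19 in Lgr5-positive and -1.56 in Lgr5-negative cells, so mouse 1 was higher. In untreated mice the same differences lay between -0.40 and 0.37 for these 6 probe sets and H2-Eb1, apart from -1.98 for H2-Aa 1452431_PM_s_at in Lgr5-positive cells. Of 35174 tested probe sets, 55 (0.156%) differed by at least 1 in the same direction in both populations of the vismodegib mice, and 21 (0.0597%) did so in the untreated mice. Members supplied 3 of the 55 (H2-Eb1, H2-Ab1 1425477_PM_x_at and H2-Aa 1452431_PM_s_at) and 0 of the 21. Of the 7 probe sets for H2-Aa, H2-Ab1 and H2-Eb1, H2-Ab1 1450648_PM_s_at was the 1 that differed by less than 0.10 between the vismodegib mice in both populations.

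**Figure D4:**
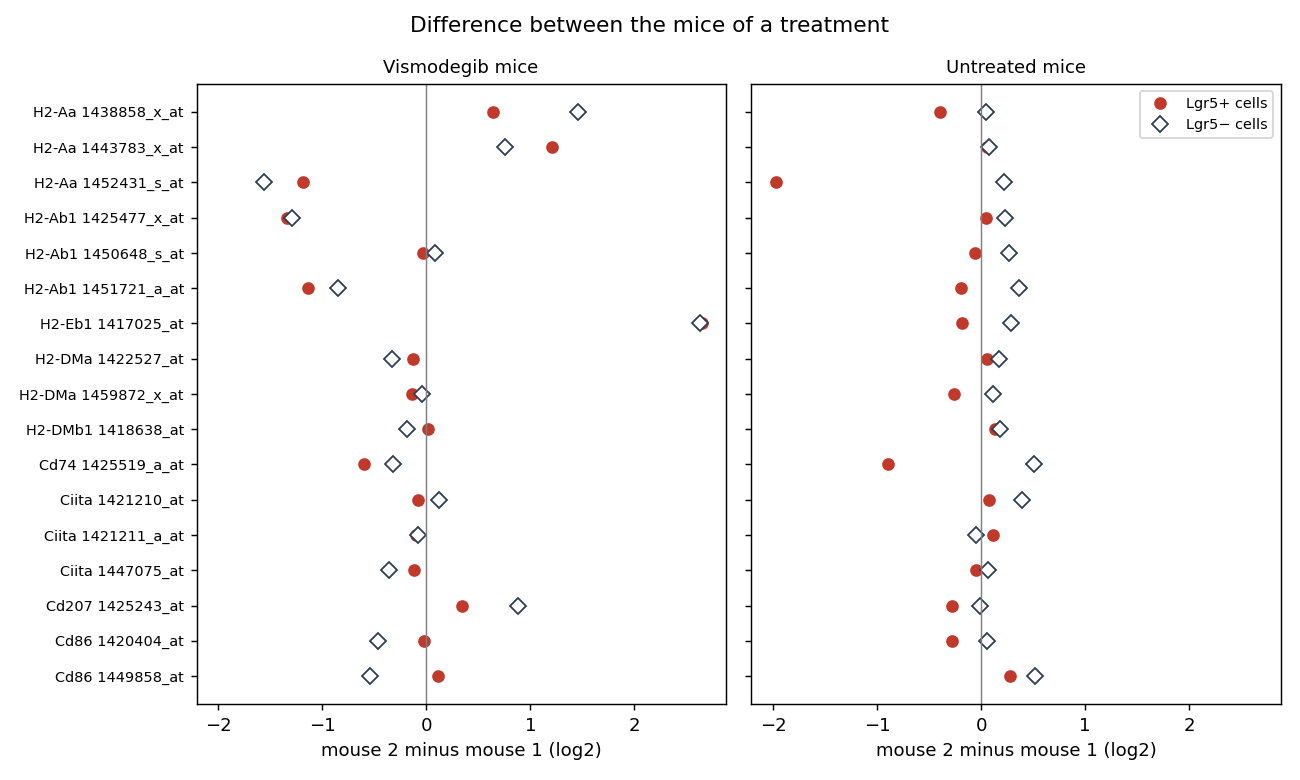
Log2 signal of mouse 2 minus mouse 1 (x axis) for each member probe set (y axis), with filled circles for Lgr5-positive and open diamonds for Lgr5-negative cells, in vismodegib mice on the left and untreated mice on the right. H2-Eb1 stands at 2.65 and 2.63 in the vismodegib mice and at -0.18 and 0.29 in the untreated mice.

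Other genes of the same pathway were read as lists. The counts of the lists below stand beside shares of all tested probe sets. With vismodegib 5.15% rose and 4.27% fell in Lgr5-positive cells, and 0.975% and 1.13% in Lgr5-negative cells. Lgr5-positive cells had 5.62% higher and 7.51% lower in untreated mice, and 0.173% and 0.0455% after vismodegib. The drug effects differed upward for 0.48% and downward for 0.233%. The lists were not tested against these shares. A list of 18 class II accessory genes (other chains, assembly factors of the promoter, proteases) had 17 tested, of which 2 rose and 0 fell in Lgr5-positive cells with vismodegib. Ctss, the protease that trims the invariant chain in professional presenting cells, read 11.44 and 10.93 in vismodegib mice, against 6.60 and 4.52 in untreated mice (5.62 ± 0.58, adjusted p = 0.00175). Ifi30, a lysosomal thiol reductase, rose by 1.04 ± 0.17 (adjusted p = 0.0103). The X and Y box factors Rfx5, Rfxap, Rfxank, Nfya, Nfyb and Nfyc did not pass in any of the 5 contrasts. In Lgr5-negative cells 0 of the 17 rose and 1 fell, Ctsl, which trims the invariant chain in thymic epithelium (-1.14 ± 0.16, adjusted p = 0.0183).

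In untreated mice 2 of the 17 accessory genes were lower in Lgr5-positive than in Lgr5-negative cells and 0 higher. They were Ctss (-4.03 ± 0.58, adjusted p = 0.00618) and Sppl2a, which clears the remnant of the invariant chain (-0.51 ± 0.12, adjusted p = 0.0307). With the mouse as a block Sppl2a no longer passed (adjusted p = 0.0554), while Ifi30 fell (-0.61, adjusted p = 0.0306) and Ctsl rose (0.58, adjusted p = 0.0353). After vismodegib 1 rose in Lgr5-positive cells, Ctsl (1.46 ± 0.16, adjusted p = 0.0236), and 0 fell. The difference between the drug effects gave 0 calls among them, and with the block it was called for Ctss (4.91, adjusted p = 0.0455, against 0.0549 without).

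For the route from interferon gamma to Ciita 9 of 11 measured genes were tested, and in Lgr5-positive cells 1 rose and 1 fell with vismodegib. Cxcl9, a chemokine induced by interferon gamma, read 5.84 and 6.74 in vismodegib cells, against 4.84 and 4.71 in untreated cells (1.52 ± 0.31, adjusted p = 0.0239). Irf1, a transcription factor of that route, fell by 1.11 ± 0.14 (log2 fold change -1.11, adjusted p = 0.00393). In Lgr5-negative cells Cxcl9 alone passed, with 8.17 and 7.61 in vismodegib mice, against 5.31 and 4.98 in untreated mice (2.74 ± 0.31, adjusted p = 0.00928). Ifng itself stayed between 4.11 and 4.35, under the filter level on all 8 arrays. In untreated mice Irf1 was higher in Lgr5-positive than in Lgr5-negative cells (0.92 ± 0.14, adjusted p = 0.00788), opposite to the class II chains.

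Among costimulation and checkpoint ligands beside Cd86, 8 of 10 measured genes were tested, of which 2 rose and 1 fell in Lgr5-positive cells with vismodegib. Cd83, a maturation marker of dendritic cells that keeps class II at the surface, rose by 1.58 ± 0.14 (adjusted p = 0.000997) and Icosl, the ICOS ligand, by 1.39 ± 0.27 (adjusted p = 0.0204). Icam1, an adhesion ligand, fell by 1.04 ± 0.16 (log2 fold change -1.04, adjusted p = 0.00816). In Lgr5-negative cells 0 of the 8 passed. In untreated mice Icosl (-1.42), Cd80 (-0.80) and Cd83 (-0.65) were lower in Lgr5-positive than in Lgr5-negative cells, with adjusted p of 0.0157, 0.0136 and 0.0238, and Icam1 was higher (1.06, adjusted p = 0.00742). After vismodegib 0 passed.

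In the fit as reported Cd207 did not pass the limma test in any contrast. The other Langerhans cell markers were read as a list. Of 14 tested of 15 measured, 2 rose and 0 fell in Lgr5-positive cells with vismodegib, Itgax (CD11c; 1.45 ± 0.34, adjusted p = 0.0378) and Csf1r (1.35 ± 0.26, adjusted p = 0.0193), which macrophages also make. In Lgr5-negative cells Il34, the cytokine that maintains Langerhans cells and is made by keratinocytes, rose (1.04 ± 0.14, adjusted p = 0.0177), and Cd1d1 fell (-1.53 ± 0.26, adjusted p = 0.0345). In untreated mice Cd1d1 was lower (-1.14, adjusted p = 0.0298) and Id2 higher (1.10, adjusted p = 0.0477) in Lgr5-positive than in Lgr5-negative cells. Ly75 (DEC-205) stayed between 3.76 and 3.89, below the filter level on all arrays. The summed linear signal of the list was 8523 and 7962 in vismodegib Lgr5-positive cells, against 8011 and 7495 in untreated ones, and Epcam and Cd24a, which epithelium also makes, are part of it. Of 10 dendritic cell markers 1 rose and 1 fell in Lgr5-positive cells, Irf8 (0.66, adjusted p = 0.0336) and Fscn1 (-1.11, adjusted p = 0.0259), and 0 passed in the other contrasts.

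Macrophage and pan-leukocyte markers moved with the class II genes in Lgr5-positive cells. Of 14 macrophage markers tested of 15 measured, 13 rose and 0 fell with vismodegib. Lyz2 (lysozyme) read 11.02 and 10.93 in vismodegib mice, against 4.85 and 3.63 in untreated mice (6.73 ± 0.38, adjusted p = 0.000267), and C1qb, a complement subunit, 9.37 and 9.30 in vismodegib mice, against 5.42 and 5.32 in untreated mice (3.96 ± 0.17, adjusted p = 0.000148). The untreated values of Lyz2 lay at and below the filter level of 4.85, where the size of a change is less certain than its direction. Tyrobp, a myeloid adaptor, rose by 3.98 and Pf4, a chemokine, by 3.91 on the log2 scale. The summed linear signal of the list was 6820 and 5395 in vismodegib Lgr5-positive cells, against 779 and 806 in untreated ones. Of 10 pan-leukocyte markers tested 7 rose and 0 fell. Ptprc read 7.74 and 6.86 in vismodegib mice, against 4.70 and 4.33 in untreated mice (2.78 ± 0.40, adjusted p = 0.006), both untreated values lying below the filter level, and the summed signal of the list was 3982 and 2257 in vismodegib mice, against 662 and 685 in untreated mice. The macrophage marker Cd163 and the pan-leukocyte marker Was stayed too dim to test.

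In Lgr5-negative cells 4 macrophage markers rose and 0 fell with vismodegib, C1qa (1.72), C1qb (1.99), C1qc (1.78) and Cd14 (0.88), and 0 pan-leukocyte markers passed. The macrophage sum was 2886 and 2646 in vismodegib mice, against 1206 and 1604 in untreated mice, and the pan-leukocyte sum 2639 and 1865 in vismodegib mice, against 1105 and 1283 in untreated mice. In untreated mice 4 of the 14 macrophage markers (Lyz2, C1qa, C1qb and Tyrobp) and 4 of the 10 pan-leukocyte markers (Lcp1, Cd53, Coro1a and Cd52) were lower in Lgr5-positive than in Lgr5-negative cells, and 0 were higher. With the mouse as a block Ptprc (-1.10, adjusted p = 0.0209, against 0.113 without) and Itgb2 (-1.26, adjusted p = 0.0163) were lower there too. After vismodegib Cd68 (2.00) and Pf4 (3.86) were higher in Lgr5-positive cells, and 0 markers of either list were lower, the call of Cd68 being lost with the block (adjusted p = 0.055). The difference between the drug effects passed for 5 macrophage markers, all larger in Lgr5-positive cells, and for 0 pan-leukocyte markers, or for Cd53 and Itgb2 with the block (adjusted p 0.0303 and 0.0376). Of the lymphocyte markers, 0 of 5 B cell and 0 of 10 T cell markers passed in either drug comparison. In untreated mice 3 of the 10 T cell markers were lower in Lgr5-positive than in Lgr5-negative cells, where 7.51% of all tested were. These were Cd3e (-0.93), Thy1 (-1.14) and Cd5 (-0.80). The B cell marker Ms4a1 stayed between 3.82 and 4.11, below the filter level. The part of macrophages or other leukocytes in the class II values was not tested.

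Keratinocyte markers changed beside them. Of 10 tested, Krt1 (1.89), Krt10 (1.68) and Cdh1 (0.56) rose in Lgr5-positive cells with vismodegib, while Krt5, Krt14 and Trp63 did not pass. In Lgr5-negative cells Krt15, a follicle stem cell keratin, rose (2.15 ± 0.17, adjusted p = 0.00263). In untreated mice Krt1 (-3.19), Krt10 (-2.18) and Cdh1 (-0.65) were lower and Krt15 (1.65) higher in Lgr5-positive than in Lgr5-negative cells, and after vismodegib 0 of the 10 passed. Of 4 tested fibroblast and 5 tested endothelial markers 0 passed in either drug comparison. In untreated mice 1 fibroblast marker, Col1a1, was higher in Lgr5-positive cells (0.88). Another, Thy1, which is also in the T cell list above, was lower.

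**Figure D5:**
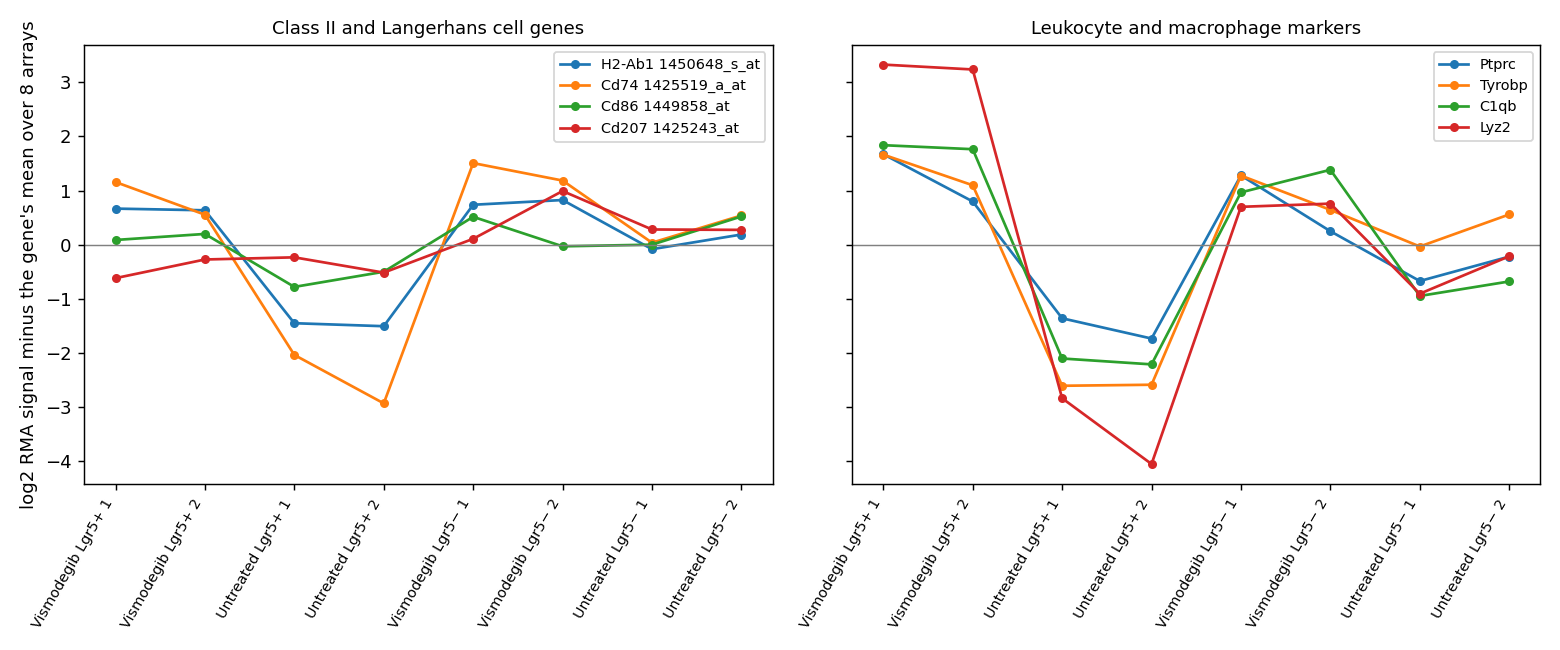
Log2 signal minus the gene's own mean over the 8 arrays (y axis) on each array (x axis), for 4 members on the left and for 4 leukocyte and macrophage markers on the right. Cd74 and H2-Ab1 are lowest on the untreated Lgr5-positive arrays, as are Ptprc, Tyrobp, C1qb and Lyz2, while Cd207 is low on all 4 Lgr5-positive arrays.

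The genes whose profile over the 8 arrays was most like that of Cd74 were found among 14394 genes by the root mean square difference of the log2 profiles after each was centred. They were Srgn, a proteoglycan core of blood cell granules (0.38), Sox7, a transcription factor (0.39), Lcp1, the leukocyte plastin (0.40), Tyrobp (0.41) and Bace2, a protease (0.46), where the profile of Cd74 itself had a root mean square of 1.52. For Cd207, with a root mean square of 0.49, they were Dock4, Lrrc61, Lmcd1, Hs3st3b1 and St6gal1, at 0.17 to 0.25. For Cd86 1449858_PM_at, with 0.43, they were Rbm47, Mrpl15, Spryd4, Rrs1 and Smagp, at 0.10 to 0.15. The nearest genes of Cd74, Cd207 and Cd86 differed, but the profiles were not scaled. A near gene therefore had to share the size of the profile, and the different lists do not show that the patterns differ. The 8 arrays come from 4 mice.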

How the data were processed

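RNA from sorted epidermal cells was amplified and hybridised to Affymetrix arrays whose probe sets hold perfect-match probes, per the labels, with 1 array per population and mouse. The authors deposited log2 values computed by RMA, per the submitters' processing notes (version not given in the sources used here). RMA corrects background, normalises by quantiles and summarises probe sets, so changes are relative to the whole array. All 8 columns were used as deposited. Of 45141 probe sets, 104 controls were left out, 28898 had 1 gene symbol in the platform annotation, 551 several and 15588 none.

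Probe sets above 4.85, the 25th percentile of all values, on at least 2 arrays (35174 of the rest, with 9863 set aside) entered 1 two-sided limma test (limma 3.58.1, R 4.3.3; lmFit, then eBayes) on group means, where 4 residual degrees of freedom joined 3.49 from the prior. The Benjamini-Hochberg adjustment ran over all of them, with a threshold of 0.05. The fit was also run on simulated data, whose values were independent with no shared mouse, so that run does not bear on the pairing of the populations. The number of arrays limits the precision. Each of the 12 further gene lists was read from the brightest single-symbol probe set of each gene, and list members without one were not measured here. The members and lists were chosen with earlier results of these data known. All member probe sets are named, and from each list up to 4 called genes of largest change, plus the checks and defining markers of other cells. Some further list genes are named because they were not called, were too dim to test or changed with the mouse block.

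The mouse pairs its populations: deviations from group means had a correlation across probe sets of 0.14 between the populations of untreated mice and 0.18 for vismodegib mice, and of 0.02 and -0.07 between equal numbers across treatments, which do not pair. Alternatives were no filter or a filter at the median, 1 value per gene (the brightest probe set or the mean), cyclic loess, an intensity trend, only the 4 arrays compared, a replicate block, mouse as a random effect, a required fold of 2, each array left out and, added after seeing the data, both arrays of a vismodegib mouse left out.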

Additional observations from a re-analysis of the deposited data

Results flagged for a closer look

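H2-Ab1 1450648_PM_s_at was the member probe set whose vismodegib effect differed between the populations by the test of that difference. The effect was 2.13 in Lgr5-positive and 0.73 in Lgr5-negative cells, a difference of 1.40 ± 0.19 on the log2 scale (limma, adjusted p = 0.0312), and every vismodegib value lay above every untreated value in both populations. The other tested H2-Ab1 probe sets had differences of 1.08 ± 0.70 and 1.00 ± 0.56 that did not pass, and the mean of the H2-Ab1 probe sets gave 1.16 (adjusted p = 0.215).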

How the results depend on the processing

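Over all repeats of the member probe sets under an alternative, 1359 kept their side of the threshold, 104 lost a call and 41 gained one. The sign changed in 0 of 309 repeats of called results and in 48 of 1195 repeats of results that were not called. In Lgr5-positive cells, where 7 rose with vismodegib, the number was 2 when a fold of at least 2 was required, and 3 to 9 without 1 array, newly called probe sets included. In Lgr5-negative cells, where 2 rose, the number was 1 with the mean of a gene's probe sets, 1 with cyclic loess, 0 with only the 4 arrays compared, 0 with the mouse number as a replicate block, which does not pair mice across treatments, 0 with a fold of at least 2, 1 without both arrays of either vismodegib mouse, and 0 to 0 without 1 array. Both reported calls were lost without either vismodegib mouse, and the 1 counted there was a new call, H2-Eb1 without mouse 1 and H2-Ab1 1425477_PM_x_at without mouse 2. In untreated mice, where 6 fell in Lgr5-positive cells, the number was 0 with a fold of at least 2 and 2 to 9 without 1 array, new calls included. The 1 that differed between the drug effects became 0 with a fold of at least 2, 0 without both arrays of either vismodegib mouse and 0 without any 1 array. With the mean of a gene's probe sets H2-Ab1 did not pass there either (1.16, adjusted p = 0.215), while H2-Aa did (2.11, adjusted p = 0.03). The mouse as a block, which pairs the populations, changed the member calls given above for untreated mice and no other member call between populations. Over all tested features, leaving aside the fold requirement, vismodegib raised 574 to 2304 in Lgr5-positive cells (1812 as reported) and 27 to 355 in Lgr5-negative cells (343), and lowered 490 to 1828 (1502) and 43 to 476 (398). Lgr5-positive cells of untreated mice had 376 to 2552 higher (1978) and 501 to 3349 lower (2641), those of vismodegib mice 0 to 336 higher (61) and 0 to 190 lower (16), and the drug effects differed for 0 to 254 upward (169) and 0 to 140 downward (82). Where an array is left out, its lone partner is assumed to vary like the other groups. The cause of these losses was not tested, beyond the smaller number of arrays and the stricter threshold.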

Other observations

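Beyond the members, the probe sets that separated the vismodegib mice in both populations were often on chromosome 17, where the mouse MHC lies. Of the 55 that differed by at least 1 in the same direction in both populations, 36 had a single gene symbol, and 13 of these (36.1%) mapped to chromosome 17. Without the 3 member probe sets it was 10 of 33 (30.3%), against 1087 of 23519 tested probe sets with a chromosome (4.62%). They included H2-Ea 1422892_PM_s_at, the alpha chain of I-E, with mouse 2 minus mouse 1 at -1.27 in Lgr5-positive and -1.63 in Lgr5-negative cells, opposite to its partner H2-Eb1. H2-Q5 differed by -1.56 and -1.47 on 1450582_PM_at and by 1.12 and 1.51 on 1430802_PM_at. Outside chromosome 17, Slc15a2, a peptide transporter, differed by -5.57 and -4.98 on the log2 scale, the largest difference of a named gene in this ranking. The genes named here were chosen after their values were seen, and the cause was not tested.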
